A study of Homo sapiens with 4 samples.

Results

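The proteasome is the protease complex that degrades ubiquitin-tagged proteins, and its genes are described here in FaDu cells given an epigenetic drug combination. Members were all rows of the deposited expression table whose symbol starts with PSM, a letter from A to G and a digit, and 49 of 25548 gene symbols met this rule. They comprised 7 alpha-ring genes (PSMA1 to PSMA7), 7 constitutive beta-ring genes (PSMB1 to PSMB7), 3 immunoproteasome genes (PSMB8, PSMB9 and PSMB10) and 2 tissue-restricted core genes (PSMA8 and PSMB11). The others were 20 genes counted as regulatory cap (6 PSMC and 14 PSMD, of which PSMD5, PSMD9 and PSMD10 encode assembly chaperones), 4 activators (PSME1 to PSME4), the inhibitor PSMF1 and 4 assembly chaperones (PSMG1 to PSMG4). PSMC3IP also met the rule. It encodes a meiotic recombination factor that was named for binding PSMC3 and is no part of the proteasome, so it is given apart from the 48 genes of the classes.

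FaDu is an established squamous carcinoma line from the hypopharynx. The treated culture received 5 µM 5-aza-2'-deoxycytidine (Aza), which traps DNA methyltransferases, on days 1 to 3, and 100 nM trichostatin A (TSA), a histone deacetylase inhibitor, on day 3. The control culture received the vehicles, DMSO and ethanol, on those days and is labelled DMSO only. Each group was 1 stranded mRNA library, so differences lack any check by replicates and no p-value is given. Values are FPKM, fragments per kilobase of transcript scaled to the number of mapped fragments. They are per length, and levels of different genes are set side by side below on that basis. Scaling by length does not remove other differences between transcripts, such as GC content. The columns summed to 516692 FPKM in the treated library and 491963 in the DMSO library, and the depth behind them is unknown. All 5 epithelial markers were present, with differences in both directions. KRT5 was 226 FPKM in the treated library and 687 in the DMSO library, TP63 23.2 and 73.7, and EPCAM 62.7 and 86.1, while KRT14 was 147 and 49.8, and CDH1 98.7 and 64.7. The 5 leukocyte markers summed to 5.05 FPKM treated and 1.74 in DMSO, nearly all of it CD14, and the defining marker PTPRC was 0.0385 and 0.0513. The 4 fibroblast and endothelial markers summed to 3.97 and 0.949 FPKM, and the part of other cell types in the results was not tested. Fewer cells of a type and less RNA per cell cannot be told apart in such bulk RNA.

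The proteasome core is a barrel of outer alpha rings and inner beta rings. The alpha subunits gate entry, and among the beta subunits PSMB6 (beta1), PSMB7 (beta2) and PSMB5 (beta5) carry the active sites. Interferon gamma is known to induce PSMB9, PSMB10 and PSMB8, which take the places of these enzymes in newly built cores and favour peptides that bind MHC class I. The same signal induces PSME1 and PSME2, whose products form a cap that opens the core without ubiquitin. The regulatory cap, made of a base with ATPases and a lid, recognises, unfolds and deubiquitinates substrates. When proteasome activity is short, the transcription factor NFE2L1 is known to raise the genes of core and cap together.

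Promoter windows from RefSeq (build GRCh38.p14, 250 bases before to 50 after a start) were found for 42 of the 48 genes, with 51 windows in all. PSMA7, PSMB1, PSMB6, PSMB7, PSMD4 and PSMG3 were not matched. Windows of the interferon-induced PSMB8, PSMB10, PSME1 and PSME2 are shown because each holds the same short string, GAAAGCGAAA, on one strand or the other. The rest of their sequence differs. Capitals mark the letters GAAA, any 2 bases, GAAA, searched on both strands as an interferon response element.
PSMB8 (chr6:32843998-32844297, minus strand): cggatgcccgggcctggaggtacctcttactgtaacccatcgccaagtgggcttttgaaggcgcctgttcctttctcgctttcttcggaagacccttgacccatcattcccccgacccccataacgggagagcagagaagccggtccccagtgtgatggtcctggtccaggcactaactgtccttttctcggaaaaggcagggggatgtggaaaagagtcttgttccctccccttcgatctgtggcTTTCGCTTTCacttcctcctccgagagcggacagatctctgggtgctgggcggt
PSMB10 (chr16:67936801-67937100, minus strand): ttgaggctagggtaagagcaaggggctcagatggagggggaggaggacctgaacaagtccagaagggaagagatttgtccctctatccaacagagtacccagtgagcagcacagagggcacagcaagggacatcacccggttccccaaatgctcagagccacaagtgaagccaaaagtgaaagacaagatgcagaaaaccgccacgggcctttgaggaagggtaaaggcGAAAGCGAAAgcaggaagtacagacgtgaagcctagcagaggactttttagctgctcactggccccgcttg
PSME1 (chr14:24135944-24136243, plus strand): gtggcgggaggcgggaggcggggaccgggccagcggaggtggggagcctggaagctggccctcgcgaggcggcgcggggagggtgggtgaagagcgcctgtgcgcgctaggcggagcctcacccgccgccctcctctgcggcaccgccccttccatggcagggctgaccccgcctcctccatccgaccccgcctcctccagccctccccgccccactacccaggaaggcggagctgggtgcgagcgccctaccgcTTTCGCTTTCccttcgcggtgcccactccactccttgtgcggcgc
PSME2 (chr14:24146561-24146860, minus strand): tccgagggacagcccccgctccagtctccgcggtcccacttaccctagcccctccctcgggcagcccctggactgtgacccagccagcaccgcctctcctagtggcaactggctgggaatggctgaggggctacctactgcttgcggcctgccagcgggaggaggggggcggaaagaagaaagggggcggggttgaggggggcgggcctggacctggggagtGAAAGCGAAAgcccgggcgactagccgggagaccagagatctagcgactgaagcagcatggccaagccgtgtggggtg

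PSMB9 is shown as the interferon-induced gene whose window lacks these letters, and PSMB3 as the constitutive beta gene with the widest difference below. In both, capitals mark TGACNNNGC, the core letters of an antioxidant response element, searched on both strands.
PSMB9 (chr6:32853942-32854241, plus strand): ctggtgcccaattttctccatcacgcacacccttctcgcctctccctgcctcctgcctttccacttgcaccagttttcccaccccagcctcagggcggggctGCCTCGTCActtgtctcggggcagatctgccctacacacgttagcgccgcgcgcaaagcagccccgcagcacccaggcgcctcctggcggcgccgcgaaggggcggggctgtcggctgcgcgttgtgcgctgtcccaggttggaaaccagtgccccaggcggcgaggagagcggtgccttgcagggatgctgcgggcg
PSMB3 (chr17:38752491-38752790, plus strand): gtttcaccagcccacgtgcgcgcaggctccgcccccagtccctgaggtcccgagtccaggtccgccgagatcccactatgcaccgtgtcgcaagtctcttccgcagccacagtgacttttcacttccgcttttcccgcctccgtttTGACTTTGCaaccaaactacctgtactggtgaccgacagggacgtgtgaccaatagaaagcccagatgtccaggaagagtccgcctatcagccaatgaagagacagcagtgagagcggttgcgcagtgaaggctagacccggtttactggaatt

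The element of GAAA, any 2 bases, GAAA was present in 7 of the 51 proteasome windows (13.7%) and in 3.57% of all 35116 windows of the table. In 5 genes, PSMB8, PSMB10, PSME1, PSME2 and PSMG4, the matched letters were the same GAAAGCGAAA on one strand or the other, a string held by 35 of the 35116 windows and singled out after the matches were seen. The other matches were in PSMB4 and PSMA4. Of the 2 windows of PSMB8, only the window printed above held the element. The shorter GAANNGAAA, which can overlap it, was present in 13.7% of proteasome windows and 7.66% of all windows. TTCNNNGAA, a STAT-binding GAS element, was present in 15.7% and 7.66%, among them PSMB8 and PSMB5. TGACNNNGC was present in 29.4% of proteasome windows and 13.3% of all, and CCAAT in 39.2% and 34.6%. These shares describe letters in a window and are not evidence of binding. The proteasome windows held a median of 22 CG dinucleotides (range 3 to 39), against 14 for all windows. PSMB10 held 7, PSMB8 15 and 17 in its 2 windows, PSMB9 26, PSME1 31 and PSME2 17.

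Most proteasome genes were moderately higher after Aza and TSA. The change of a gene is given as log2((treated FPKM + 1)/(DMSO FPKM + 1)), a scale that understates changes, and more so the lower the levels. All 48 genes but PSMA8 and PSMB11 reached 1 FPKM in either library, the filter used for a measured gene. The lowest of these 46 stood at 8.60 FPKM when treated and 7.46 in DMSO, so none passed through 1 library alone. Their median change was 0.55, a 1.46-fold difference, against 0.13 over all 13558 measured genes. Above 0 were 37 of the 46 genes (80.4%), against 56% of all measured genes. The difference seldom reached 2-fold. Higher by that much were 4 genes, PSMD2, PSMB9, PSMD8 and PSMB3, or 8.70% of members, which is below the 16.1% of all measured genes, and none was 2-fold lower, against 5.21%. At 1.5-fold, 22 of the 46 genes (47.8%) were higher and 1 lower, against 30.7% and 16.1% of all measured genes. Restricted to levels of at least 10 FPKM in each library, where nearly all members lie, the median was 0.55 over 45 members and 0.05 over all 4983 genes. In that range 22 of 45 members and 22.6% of all genes were at least 1.5-fold higher, and 4 members and 8.99% of all genes at least 2-fold higher. No member there was 2-fold lower, against 3.75% of all genes, and 36 members were above 0, against 53% of all genes. The summed FPKM of the 48 genes was 4133 in the treated library and 3023 in the DMSO library, which is 0.800% and 0.615% of the column sums.

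**Figure D1:**
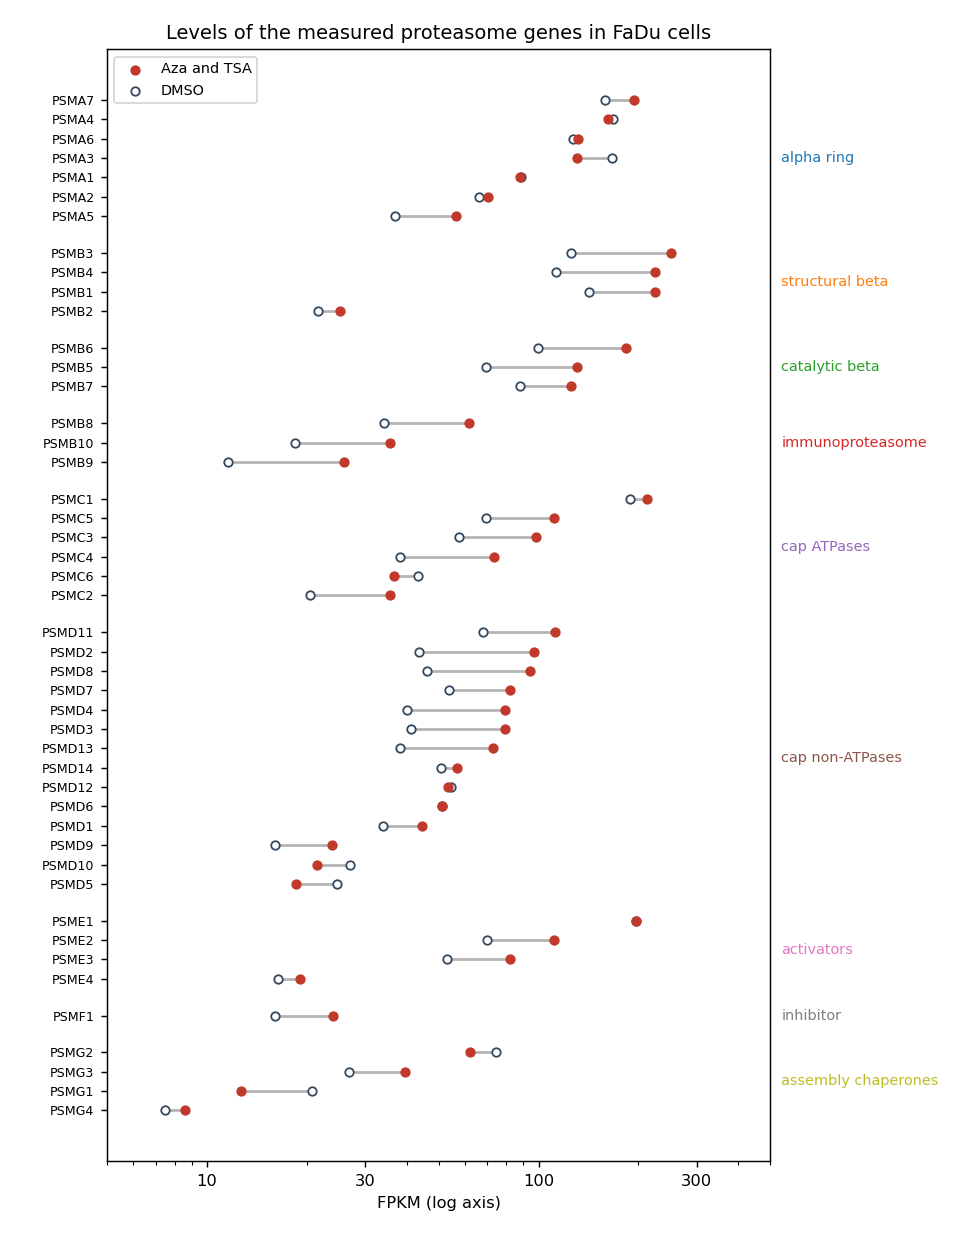
Levels of the 46 measured proteasome genes in FaDu cells, with FPKM on a log axis and 1 row per gene, grouped by class. Filled points are the library treated with Aza and TSA and open points the DMSO library, 1 library each, and the line joins the values of a gene. The 7 constitutive beta genes and the 3 immunoproteasome genes lie to the right when treated, while the points of PSMA1, PSMD6 and PSME1 coincide.

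Changes tracked transcript GC content. Across 12529 measured genes with a GENCODE transcript the Spearman correlation was 0.63, and across the 46 proteasome genes it was 0.66, from the same pair of libraries. Values are therefore also given after a smooth GC trend was subtracted. After this the median of the 46 genes was 0.37, against 0.02 over all genes, and 37 of them were above 0, against 51.3% of all. Higher by 2-fold were then 2 members, PSMA5 and PSMC2, in place of the 4 named above, and 7.42% of all genes, and lower by 2-fold were none and 4.26%. The part of GC content in the differences below was not tested further.

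**Figure D2:**
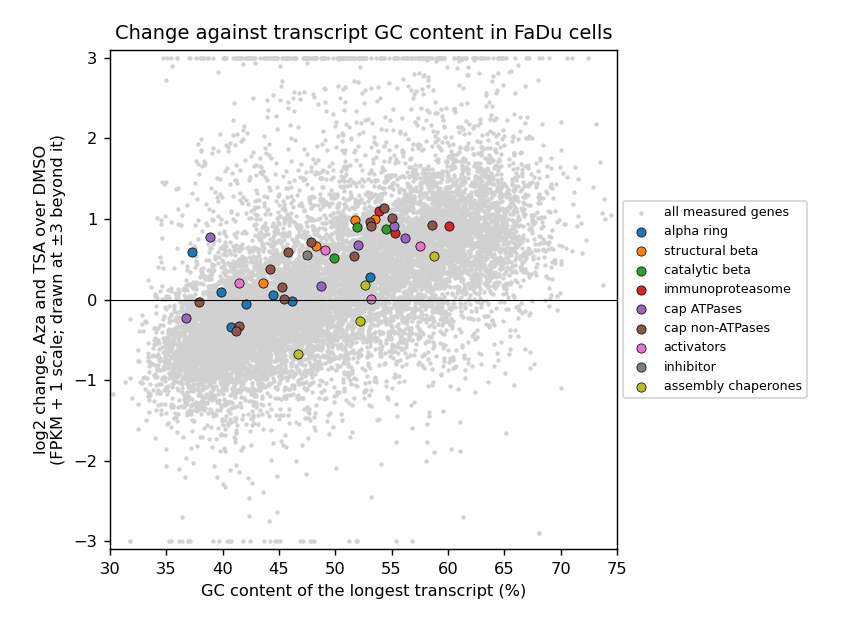
Change of each measured gene (log2 of treated over DMSO, FPKM + 1 scale) against the GC content of its longest transcript in percent. Grey points are all measured genes, drawn at the edge where past 3 in either direction, and coloured points the 46 proteasome genes by class, all from the same 2 libraries. Proteasome genes run along the upward trend of all genes (Spearman 0.66 and 0.63), with the alpha-ring genes mostly at the low GC end.

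The alpha ring differed little between the libraries. Its 7 genes summed to 833 FPKM in the treated library and 812 in the DMSO library, with a median change of 0.05. No gene of the ring was past 2-fold, against 16.1% of all measured genes higher and 5.21% lower. PSMA5 was the widest, at 56.2 FPKM in the treated library and 37.0 in the DMSO library (log2 change 0.59), and it was also the lowest in level of the ring in both. PSMA7 was 194 and 159 FPKM, and PSMA2 70.6 and 65.9. The other 4 were level or lower, with PSMA6 at 132 FPKM treated and 127 in DMSO, PSMA1 at 87.7 and 88.5, PSMA4 at 162 and 168, and PSMA3 at 131 and 167. PSMA3 had the lowest change of the ring (−0.35). The median GC content of the alpha-ring transcripts was 42.1%, and after GC correction the median change was 0.18, with PSMA5 at 1.11 and PSMA3 at −0.01. The sign of the uncorrected median depended on scaling, at −0.02 in TPM and −0.12 after a length correction.

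All 7 constitutive beta genes were higher in the treated library, at a summed 1166 FPKM against 659 in DMSO. Their median change was 0.87, or 1.83-fold, and 5 of the 7 lay above the highest alpha-ring change. Among the structural subunits, PSMB3 was 251 FPKM in the treated library and 125 in the DMSO library (change 1.00). PSMB4 was 225 and 113 FPKM (0.99), just short of 2-fold on this scale, and PSMB1 224 and 142 (0.66). PSMB2 was far lower than the rest in both libraries, at 25.1 and 21.7 FPKM (0.21). The enzymes followed the same pattern. PSMB5, the chymotrypsin-like beta5 subunit and the main target of bortezomib, was 131 FPKM in the treated library and 69.3 in the DMSO library (0.91). PSMB6 was 183 and 99.9 FPKM (0.87), and PSMB7, the trypsin-like subunit, was 126 and 87.8 (0.51).

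Within the core barrel, where alpha and beta subunits occur in equal number, the mean beta level was 1.40 times the mean alpha level in the treated library and 0.811 times in the DMSO library. Neither ratio was corrected for GC content. The beta genes had a median transcript GC content of 51.8%. After GC correction their median change was 0.61 against 0.18 for the alpha ring, all 7 stayed above 0, and none lay above the highest alpha-ring gene, PSMA5. Seen by gene, 6 of the 7 alpha-ring values after correction were at 0.49 or below, and the beta values ran over 0.37 to 0.72.

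The 3 immunoproteasome genes were all higher in the treated library, by 1.80-fold to 2.23-fold, and so were the standard subunits that they replace. PSMB9 (beta1i) was 25.8 FPKM in the treated library and 11.6 in the DMSO library (log2 change 1.09). PSMB10 (beta2i) was 35.7 and 18.4 FPKM (0.92), and PSMB8 (beta5i) 61.8 and 34.3 (0.83). Against all measured genes these are not extreme, with 86.3%, 81.2% and 78.5% of genes lower in change than PSMB9, PSMB10 and PSMB8. The class summed to 123 FPKM treated and 64.3 in DMSO, a 1.92-fold difference, while PSMB5, PSMB6 and PSMB7 together were 440 and 257 FPKM, a 1.71-fold difference. The immunoproteasome genes had the highest median GC content of these classes, 55.3%, and after GC correction their changes were 0.68 (PSMB9), 0.33 (PSMB8) and 0.17 (PSMB10), with a median of 0.33 against 0.61 for the constitutive beta genes. An antisense RNA beside PSMB8, PSMB8-AS1, was 5.23 FPKM in the treated library and 3.51 in the DMSO library. Whether strand was used in counting is not given in the sources used here, so a share of its reads could stand in the PSMB8 value.

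Because each immunoproteasome gene has a standard partner, its share of the pair gives the balance in a library. PSMB9 made up 12.3% of PSMB9 plus PSMB6 in the treated library and 10.4% in the DMSO library. PSMB10 made up 22.1% of its pair with PSMB7 when treated and 17.3% in DMSO. PSMB8 made up 32.1% of its pair with PSMB5 when treated and 33.1% in DMSO. Over the 3 pairs the immunoproteasome share was 21.9% in the treated library and 20.0% in the DMSO library, a difference of 1.88 percentage points. After GC correction the difference was −0.961 points, so its direction depended on that step. In both libraries every standard subunit stood above its counterpart, from 2.12 times (beta5) to 7.10 times (beta1) in the treated library and from 2.02 to 8.63 times in the DMSO library. The tissue-restricted variants stayed near 0. PSMA8, the alpha subunit of testis proteasomes, was 0.598 FPKM in the treated library and listed at 0 in the DMSO library, and PSMB11, the beta subunit of thymic cortical epithelium, was listed at 0 in both.

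**Figure D3:**
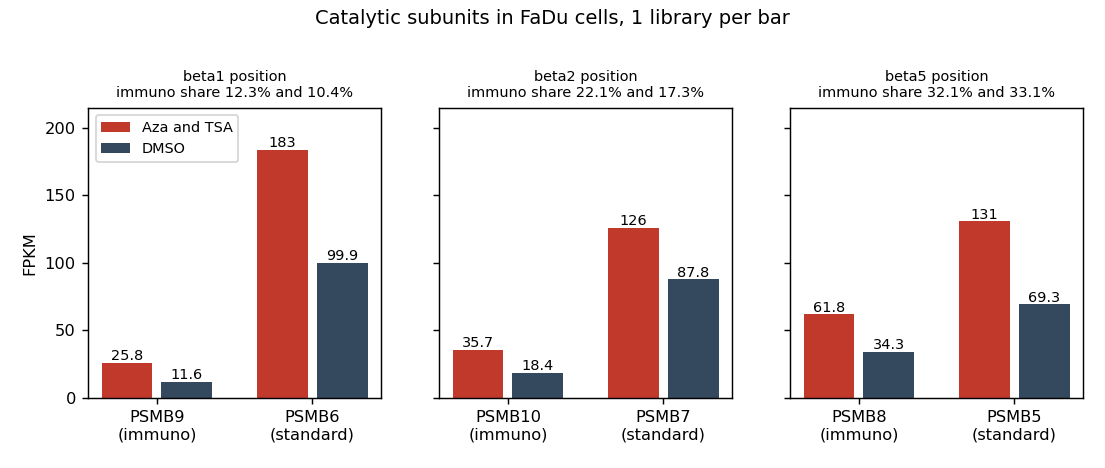
FPKM of each immunoproteasome subunit and the standard subunit it replaces, 1 panel per active-site position and 1 library per bar, with the treated library (red) left of the DMSO library (dark blue). Both members of each pair stood higher when treated, and the immunoproteasome share in the panel titles, treated then DMSO, was 12.3% and 10.4% at beta1, 22.1% and 17.3% at beta2, and 32.1% and 33.1% at beta5.

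Of the 20 regulatory cap genes, 16 were above 0 (56% of all measured genes were) and 2 were at least 2-fold higher, PSMD2 and PSMD8 (16.1% of all measured genes were). The median change was 0.64, with sums of 1453 FPKM in the treated library and 1007 in the DMSO library. After GC correction PSMD2 was at 0.70 and PSMD8 at 0.53, both short of 2-fold, and the cap median was 0.40. The ATPases form the ring that unfolds substrates. PSMC4 was 73.4 FPKM treated and 38.3 in DMSO (0.92), and PSMC2 was 35.7 and 20.4 (0.78). PSMC3 at 98.5 and 57.7 FPKM and PSMC5 at 111 and 69.3 were likewise higher. PSMC1, the most abundant ATPase transcript, was close in the 2 libraries at 212 and 189 FPKM (0.17), and PSMC6 was lower, at 36.7 and 43.4 (−0.23). PSMC1 has 13 named pseudogenes in RefSeq, the most of any member, and how reads of such copies were assigned is not given. After GC correction all 6 ATPases were above 0, and PSMC2 (transcript GC content 38.9%) reached 1.22.

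The non-ATPase genes spanned the widest range of any class, from −0.39 to 1.14. PSMD2, the large scaffold of the cap base, was 96.9 FPKM in the treated library and 43.4 in the DMSO library (1.14), the highest change of all 46 genes. The other base scaffold, PSMD1, was 44.6 and 34.0 FPKM (0.38). PSMD4, a ubiquitin receptor, was 79.1 and 40.0 FPKM (0.97).

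Among lid genes, PSMD8 was 94.0 FPKM treated and 46.0 in DMSO (1.01), PSMD3 79.1 and 41.3 (0.92), PSMD13 72.8 and 38.2 (0.91), PSMD11 112 and 68.2 (0.71) and PSMD7 81.8 and 53.8 (0.60). PSMD14, the deubiquitinase of the lid, was 56.6 and 50.6 FPKM (0.16). PSMD6 was 51.2 and 51.1 FPKM (0.00) and PSMD12 53.3 and 54.5 (−0.03). As deposited, lid genes thus ran from the same level in both libraries to 2-fold higher. The spread was narrower after GC correction, with PSMD11 at 0.69, PSMD8 at 0.53, PSMD12 at 0.45, PSMD3 at 0.25 and PSMD6 at 0.09.

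PSMD5, PSMD9 and PSMD10 carry subunit names but encode chaperones of base assembly that leave the finished cap. PSMD5 was 18.6 FPKM treated and 24.7 in DMSO (−0.39), and PSMD10, also called gankyrin, was 21.4 and 27.1 (−0.32), the lowest changes among the PSMD genes. PSMD9 differed from them, at 23.8 and 16.1 FPKM (0.54). After GC correction 12 of the 14 non-ATPase genes were above 0, with a median of 0.49. The exceptions were PSMD5 at −0.08 and PSMD10 at −0.03. Without these 3 chaperones, a choice made after the values were seen, 15 of 17 cap genes were above 0 as deposited, with a median of 0.71, and all 17 after GC correction, with a median of 0.45.

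**Figure D4:**
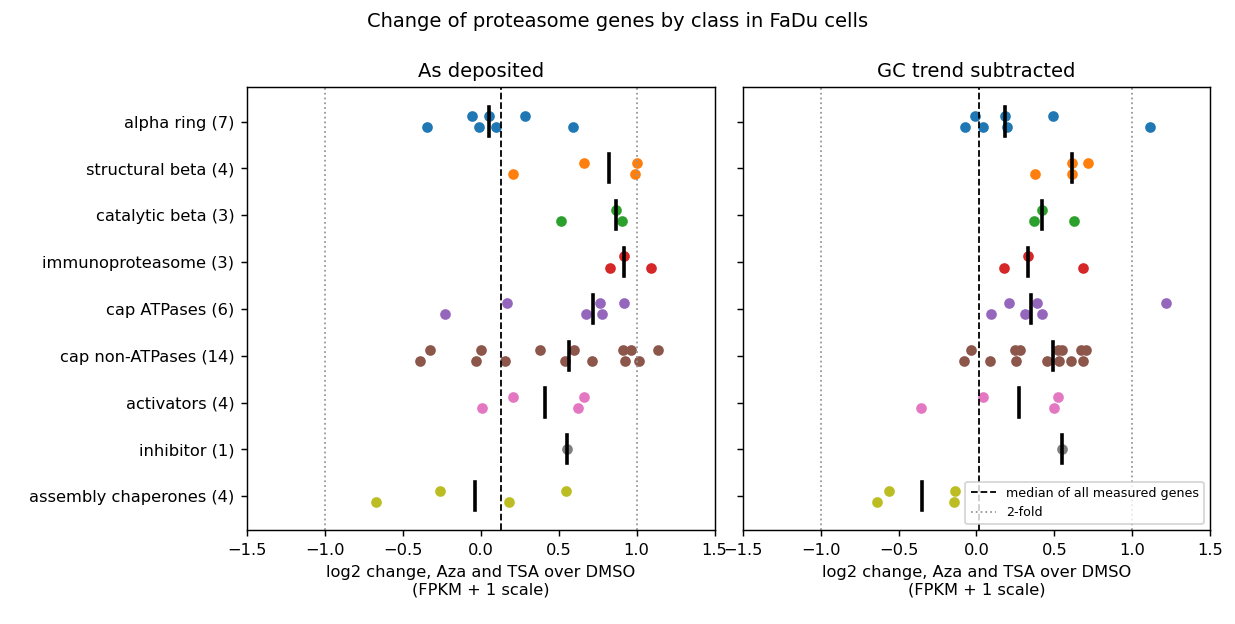
Change of each proteasome gene by class (log2 of treated over DMSO, FPKM + 1 scale), as deposited on the left and after the GC trend was subtracted on the right. Points are genes, short bars the class medians, dashed lines the median of all measured genes (0.13 and 0.02) and dotted lines a 2-fold difference. The constitutive beta and immunoproteasome genes lie right of most alpha-ring genes as deposited, and the assembly chaperones lie left of 0 after correction.

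The interferon-inducible activator pair differed in change. PSME2 was 112 FPKM in the treated library and 70.0 in the DMSO library (0.66), whereas PSME1 was 197 in each (0.01). The level of PSME1 over that of PSME2 was 1.77 in the treated library and 2.81 in the DMSO library. RefSeq names 6 pseudogenes of PSME2. PSME3, which forms a nuclear activator, was 81.9 FPKM treated and 52.9 in DMSO (0.62), and PSME4, an activator known for acting on acetylated histones in germ cells, was 19.1 and 16.4 (0.21). After GC correction PSME3 was at 0.53, PSME4 at 0.50, PSME2 at 0.04 and PSME1 at −0.36. The value of PSME2 depended on the transcript used. With GC content taken as the median over coding transcripts, PSME2 was at 0.51, PSME3 at 0.52, PSME4 at 0.57 and PSME1 at −0.27. PSMF1, an inhibitor of the core, was 23.9 FPKM treated and 16.0 in DMSO (0.55).

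The assembly chaperones had no common direction as deposited. PSMG1 was 12.7 FPKM in the treated library and 20.8 in the DMSO library (−0.67), the lowest change of all 46 genes and the single one at least 1.5-fold lower. Its partner in alpha-ring assembly, PSMG2, was 62.0 and 74.5 FPKM (−0.26). The other dimer was higher, with PSMG3 at 39.5 and 26.8 FPKM (0.54) and PSMG4 at 8.60 and 7.46 (0.18). The median of the 4 genes was −0.04, and all 4 lay below 0 after GC correction (median −0.35). With GC content taken as the median over coding transcripts, PSMG2 was at 0.14. PSMC3IP, apart from the proteasome, was 10.1 FPKM treated and 6.29 in DMSO (0.61).

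The order of the levels was much the same in both libraries, with a Spearman correlation of 0.91 across the 46 genes, which come from the same cells and pipeline. Levels within a ring were uneven although each subunit has its own fixed place. The highest alpha-ring level was 3.44 times the lowest in the treated library and 4.53 times in the DMSO library. For the constitutive beta genes it was 10.0 and 6.54 times, with PSMB2 the lowest in both. The SD of log2 FPKM was 0.65 treated and 0.83 in DMSO over the alpha ring, and 1.15 and 0.92 over the constitutive beta ring. These levels were not corrected for GC content.

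Genes that work around the proteasome were read from a list of 51 genes in 7 groups, of which 48 were measured. Their median change was 0.21, with 7 at least 2-fold higher (16.1% of all measured genes were) and 2 lower (5.21%). After GC correction 3 were higher (7.42% of all genes were) and 1 lower (4.26%). The genes upstream of degradation were mixed. UBB, a polyubiquitin gene, was 1186 FPKM in the treated library and 536 in the DMSO library (1.15). UBA1, the main ubiquitin-activating enzyme, was 78.6 and 32.7 FPKM (1.24), and its relative UBA6 was 11.6 and 20.0 (−0.73). VCP, the p97 segregase that extracts substrates, was 91.3 and 40.0 FPKM (1.17), and its cofactor NPLOC4 79.9 and 41.2 (0.94). After GC correction UBB was at 0.89, VCP at 0.89 and UBA1 at 0.65, each short of 2-fold.

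Among shuttle and stress-linked factors, ZFAND2A was 15.3 FPKM treated and 4.88 in DMSO (1.47) and the shuttle UBQLN4 29.2 and 14.0 (1.01). ZFAND2B was 10.1 and 5.88 FPKM (0.68). After GC correction ZFAND2A was at 1.09, UBQLN4 at 0.46 and ZFAND2B at 0.12. Of 11 assembly and cap-associated genes none was past 2-fold in either direction, against 16.1% of all measured genes higher and 5.21% lower. ADRM1, a ubiquitin receptor of the cap, was 89.8 and 47.0 FPKM (0.92), and the core maturation factor POMP was 83.4 and 73.9 (0.17). ZFAND5 was 23.0 and 36.0 FPKM (−0.63), UBE3C 48.8 and 32.4 (0.58) and PITHD1 33.6 and 22.1 (0.58). After GC correction ADRM1 was at 0.02, and at −0.01 with GC content taken as the median over coding transcripts, while POMP was at 0.83. The transcription factor NFE2L1 was 47.3 FPKM in the treated library and 37.7 in the DMSO library (0.32). NFE2L2, which can also act on proteasome genes, was 48.3 and 114 FPKM (−1.22), STAT3 45.4 and 27.7 (0.69) and the CCAAT-binding subunit NFYC 36.1 and 23.8 (0.58). After GC correction NFE2L1 was at −0.17 and NFE2L2 at −1.14.

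In the interferon gamma pathway to the immunoproteasome, genes ran in both directions. IFNGR1, the ligand-binding receptor chain, was 29.3 FPKM treated and 73.5 in DMSO (−1.30), while the signalling chain IFNGR2 was 52.6 and 31.9 (0.70). The kinases JAK1, at 30.7 and 48.7 FPKM (−0.65), and JAK2, at 3.67 and 7.62 (−0.88), were both lower. NLRC5, the class I transactivator that also acts on PSMB9, was 6.68 FPKM treated and 2.10 in DMSO (1.31). IRF1 was near level at 13.5 and 12.9 FPKM (0.06). Of the 8 genes 1 was at least 2-fold higher (16.1% of all measured genes were) and 1 lower (5.21%), with a median of −0.18. After GC correction NLRC5 was at 0.66 and IFNGR1 at −0.92. In the MHC on chromosome 6, where PSMB8 and PSMB9 lie beside the peptide transporter genes, TAP1 was 38.2 FPKM treated and 9.35 in DMSO (1.92) and TAP2 28.1 and 14.8 (0.88). TAP1 was therefore wider in change than its neighbours PSMB9 (1.09) and PSMB8 (0.83), and it was still past 2-fold after GC correction. HLA-DOB was 1.02 and 0.408 FPKM (0.52), and HLA-DMB was 0.999 FPKM and listed at 0, just under the filter.

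**Figure D5:**
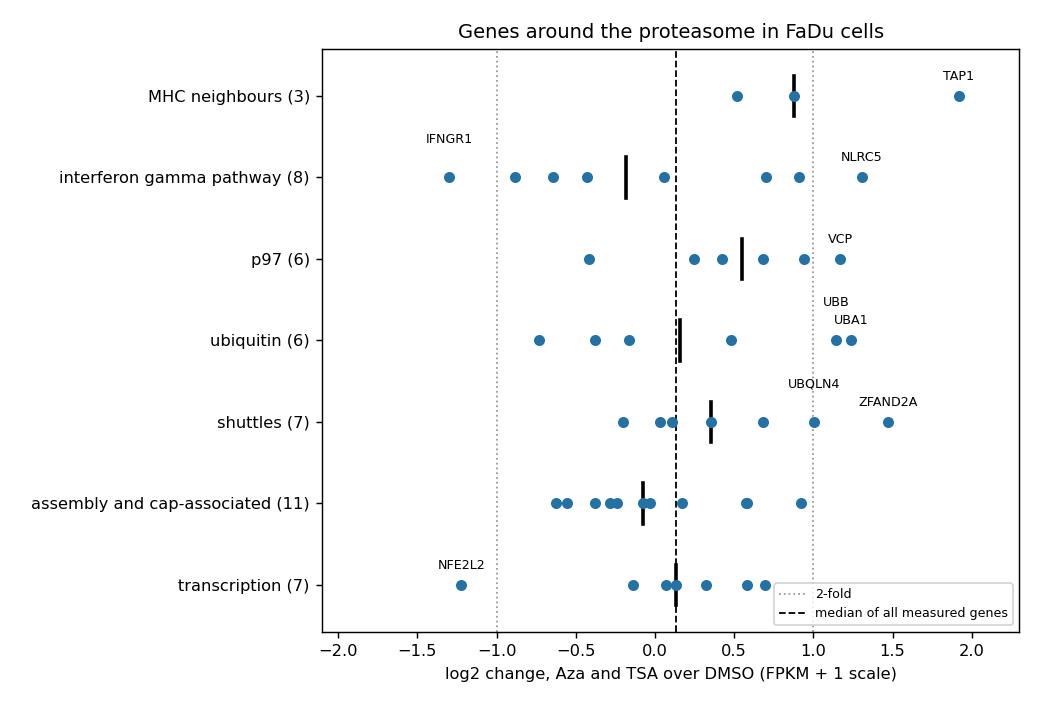
Change of 48 measured genes that work around the proteasome (log2 of treated over DMSO, FPKM + 1 scale), 1 row per group. Points are genes, bars the group medians, the dashed line the median of all measured genes (0.13) and the dotted lines a 2-fold difference, with genes past 2-fold named. TAP1, ZFAND2A and NLRC5 lie furthest right, and IFNGR1 and NFE2L2 furthest left.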

How the data were processed

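Polyadenylated RNA of FaDu cells was sequenced from 1 library per group, grouped by label. Per the file headers, the authors' deposited table lists gene symbols with their FPKM in each library. The submitters' processing notes name TopHat 1.3.2, Cufflinks 2.0.2 and the build hg19. No source used here gives the annotation, the strand setting, filters or scaling across libraries. The UMSCC47 columns were not used here.

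Of 25593 rows, 45 repeated rows were summed, none of them a member. The change was log2 of treated over DMSO FPKM, each plus a pseudocount of 1, and genes at 1 FPKM or more in either library counted as measured. With 1 library per group no test was possible, and genes were called at a 2-fold difference. Members, lists and naming rules were chosen with earlier results of these data known. That rule named all catalytic, immunoproteasome, tissue-restricted, activator, inhibitor and chaperone members, the extremes of the other classes and up to 4 genes of each related list. Other members and genes were added after their values were seen. Some genes of the related lists are not reported here.

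GC content and length came from the longest coding transcript of each symbol in GENCODE release 29, used without coordinates because its build differs. Of measured genes 92.4% had one. The trend on GC content was fitted by lowess (statsmodels 0.14.6, fraction 0.3) over 7129 genes with at least 5 FPKM in each library. Alternatives were other pseudocounts, filters, scalings, folds and a length correction.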

Additional observations from a re-analysis of the deposited data

How the results depend on the processing

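With 4 members at least 2-fold higher as reported, the count was 1 with a pseudocount of 5 and 1 after the length trend was subtracted, and 2 after centring, 2 after GC correction and 2 with median GC content, an alternative chosen after seeing the data. At 1.5-fold it was 22 higher and 1 lower. The alpha-ring median changed sign in TPM (−0.0166) and after the length correction (−0.12). Over all measured genes the counts were 893 higher and 253 lower with a pseudocount of 5, 4160 and 2187 at 1.5-fold, 930 higher after GC correction and 924 with median GC content. Lower genes numbered 1182 with a pseudocount of 0.1 and 1152 in TPM. Related genes were 3 higher and 1 lower after GC correction, and 3 and 0 with median GC content. The immunoproteasome share differed by −0.961 points after GC correction, against 1.88. The cause of these shifts was not tested. The medians of the constitutive beta, immunoproteasome, cap and activator genes stayed above 0 under every alternative run. Centring subtracted 0.05. No paired analysis was possible because each group had 1 library, and for the same reason no replicate could be left out. The depth of the libraries is unknown, which limits what can be said of PSMA8 and PSMB11.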
